A study of Mus musculus with 2 samples.

Results

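Axon guidance ligands and their receptors were examined as RNA targets of Prrc2a, a proline-rich coiled-coil protein that the study describes as a reader of N6-methyladenosine (m6A), the common internal methyl mark of mRNA. The members were the protein-coding genes of GENCODE release M21 whose symbols begin with Sema, Plxn, Epha, Ephb, Efna, Efnb, Unc5 or Ntn, the Slit genes (Slit1, Slit2, Slit3) and the Robo genes (Robo1 to Robo4), together with Dcc, Neo1, Nrp1 and Nrp2. Slitrk genes were left out. This rule gave 74 of 21951 protein-coding genes. The letters of the rule also take in Unc50 and Unc5cl, which are no netrin receptors and had no exonic peak, so 72 of the 74 are guidance genes.

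Prrc2a RIP-seq, which sequences the RNA pulled down with a protein by an antibody, was performed on whole brain of wild type male C57BL/6J mice 4 weeks of age. There were 2 replicates of 1 condition, described by the study as biological, and no other genotype, treatment or age. The protocol describes brains of several mice in lysis buffer, and the labels do not say which animals each replicate came from. The deposited values are peaks, which are stretches of the genome where the immunoprecipitate exceeded a control, each with a fold enrichment (a linear ratio). A peak is called shared here when a replicate 1 peak overlapped a replicate 2 peak by at least 1 bp, and it belongs to a gene when it overlapped an exon of that gene.

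Replicate 1 held 18129 peaks and replicate 2 held 18671, with median enrichments of 2.84 and 2.63. Read totals are unknown, the control library is not stated, and no sample without the antibody was available for comparison here. Genes that lack a peak and genes that gave too few reads for one therefore look alike. In whole brain, fewer cells that carry an mRNA, less of it per cell and less binding cannot be told apart either. Among fixed marker genes, shared peaks lay over 0 of 5 neuronal, 0 of 5 oligodendroglial, 1 of 4 astrocytic (Slc1a2) and 1 of 3 microglial (Csf1r) genes, so that the presence of a peak did not serve as a check of the tissue.

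Growing axons read guidance cues through receptors on their growth cones. Semaphorins are sensed by plexins, often with neuropilins as co-receptors, while ephrins on one cell bind Eph receptor tyrosine kinases on another. Slits repel axons through Robo receptors, and netrins attract or repel them through Dcc and Unc5 receptors. In the brain at this age many of these proteins are known also for roles at synapses and in glia.

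Of the Eph receptors, 6 are shown together with 3 A plexins by sequence because both replicates placed a peak in the same part of their mRNAs, the longest coding exon near the amino terminus. Each stretch below is the 64 bases of the GRCm38 reference, read 5′ to 3′ on the strand of the gene, around the GGAC nearest the middle of the bases common to both peaks, with GGAC in capitals. GGAC is the core motif that the study examined in Prrc2a peaks. In the order printed, the stretches lie at chr16:63773037-63773100 (minus strand), chr5:84331498-84331561 (minus strand), chr16:60425110-60425173 (minus strand), chr4:28821501-28821564 (plus strand), chr16:21214693-21214756 (plus strand) and chr6:41614409-41614472 (plus strand), then for the plexins at chr6:89357190-89357253 (minus strand), chr1:194644368-194644431 (plus strand) and chr6:32517218-32517281 (minus strand). None is printed for Epha4, Ephb2 and Ephb4. The bases of this exon under both peaks held 0 GGAC in Ephb2 and in Ephb4, and those of Epha4, with 3 GGAC, are also annotated as UTR of another transcript.
Epha3: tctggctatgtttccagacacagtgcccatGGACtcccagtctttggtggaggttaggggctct
Epha5: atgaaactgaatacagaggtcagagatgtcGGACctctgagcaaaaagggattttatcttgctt
Epha6: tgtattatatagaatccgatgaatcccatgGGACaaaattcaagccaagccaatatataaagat
Epha7: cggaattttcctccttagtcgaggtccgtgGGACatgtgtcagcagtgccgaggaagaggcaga
Ephb3: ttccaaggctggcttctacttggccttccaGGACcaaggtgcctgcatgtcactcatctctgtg
Ephb6: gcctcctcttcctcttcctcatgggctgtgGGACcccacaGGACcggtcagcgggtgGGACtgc
Plxna1: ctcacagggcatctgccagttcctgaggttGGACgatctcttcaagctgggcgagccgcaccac
Plxna2: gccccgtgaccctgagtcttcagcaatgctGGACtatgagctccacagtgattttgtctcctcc
Plxna4: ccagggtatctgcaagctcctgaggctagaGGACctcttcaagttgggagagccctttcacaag

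A pair of ligand genes is added from outside the receptor families, for coding peaks that held a GGAC. The enrichments in replicates 1 and 2 were 2.96 and 3.98 in Ntng2 and 2.83 and 4.20 in Sema4b. In replicate 1 both lay near the median of all peaks, 2.84. The most enriched pair of Sema4b, over exon 11, held no GGAC and is not printed. The stretch of Ntng2 lies in exon 2 of 9 at chr2:29227754-29227817 (minus strand). That of Sema4b lies in exon 15 of 15, close to the stop codon, at chr7:80225224-80225287 (plus strand).
Ntng2: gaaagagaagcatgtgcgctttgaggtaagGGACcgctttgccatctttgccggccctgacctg
Sema4b: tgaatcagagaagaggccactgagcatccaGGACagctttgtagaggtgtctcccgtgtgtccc

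Shared exonic peaks were found in 34 of the 74 members (45.9%), against 12.0% of all protein-coding genes. In replicate 1, 37 members had an exonic peak (16.5% of all protein-coding genes did), and in replicate 2, 49 members had one (21.0%). Over their exons lay 178 peaks in replicate 1 and 299 in replicate 2, and 123 of the replicate 1 peaks were shared. Receptors held a shared peak in 21 of 35 genes (60.0%) and ligands in 13 of 37 (35.1%). The exons of the receptors were longer, with a median of 8054 exonic bases against 5406 in the ligands, and the part of length in this difference was not tested.

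Long genes offer more sequence for a peak, so the share was also taken by exonic length. Of the members with under 4000 exonic bases, 3 of 15 (20.0%) had a shared peak, against 3.79% of all protein-coding genes of that length. With at least 4000 but under 8000 exonic bases the count was 9 of 32 (28.1%, against 16.8%), and with 8000 or more it was 22 of 27 (81.5%, against 36.6%). In each length class the members' share lay above that of all protein-coding genes. The classes were wide, and lengths within them were not matched. The 3 members of the shortest class with a shared peak, Efnb1 (3452), Ephb6 (3773) and Ntng2 (3990), all lay near its upper limit. With 2 replicates of 1 condition these shares are descriptions, and no test was run on them.

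**Figure D1:**
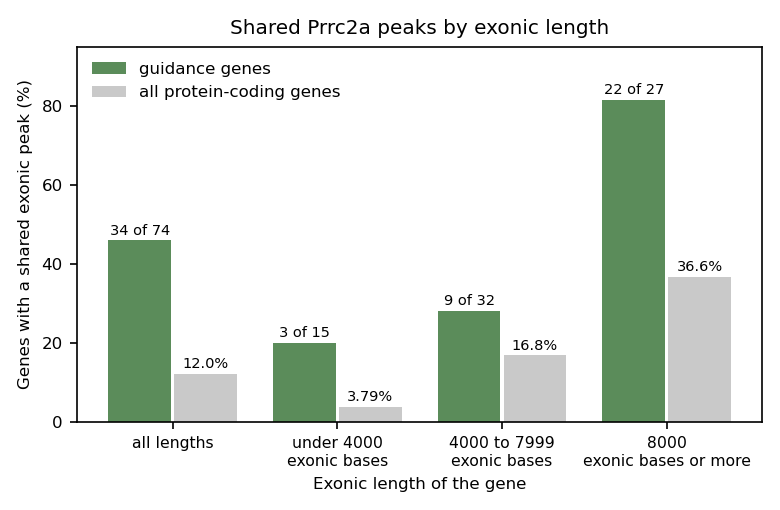
Share of genes with a shared exonic Prrc2a peak (%), for the guidance genes (green, with counts) and all protein-coding genes (grey), over all lengths and by exonic length. The bar of the guidance genes rises from 3 of 15 in the shortest class to 22 of 27 in the longest and exceeds the grey bar in all classes.

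Among the ligands, semaphorins had a shared peak in 6 of 20 genes. Sema6a, a transmembrane semaphorin read by A plexins, had 9 shared peaks, and the most enriched one, with its midpoint in the 5′ UTR, reached 3.86 in replicate 1 and 5.98 in replicate 2. Sema4b, also a transmembrane semaphorin, peaked over coding exon 11 of 15 with 2.41 and 6.11. For Sema3a, the secreted repellent of the class that acts through neuropilins, the strongest pair lay over the 5′ UTR at 5.08 and 3.21. In the transcript chosen to represent the gene, its replicate 1 peak reached the start codon and its replicate 2 peak ended upstream of it. These 3 genes were enriched in both replicates, but Sema4b stood clearly higher in replicate 2 and Sema3a higher in replicate 1. In Sema5a, whose extracellular part carries thrombospondin repeats, the values were 1.98 and 5.45 over the 3′ UTR. In Sema6d, a relative of Sema6a, they were 2.67 and 4.68 in a pair whose midpoint was intronic. The remaining semaphorin with a shared peak was Sema4d, a ligand of Plxnb1, at 1.89 and 2.21.

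Ephrins divided by gene. Efna5, a lipid-anchored ephrin that patterns topographic maps, had a peak of 6.21 in replicate 1 and 8.07 in replicate 2, the largest mean of any member. That replicate 1 peak was 6618 bp wide, covered the start codon, and held only 312 exonic bases, because most of it lay upstream of the annotated gene. The other 3 shared Efna5 peaks of replicate 1 held 1110, 1916 and 293 exonic bases in widths of 1110, 2010 and 513 bp, and 82.1% of the mRNA was under peaks of both replicates. The most enriched pair of Efnb2, a transmembrane ephrin, spanned the start codon at 3.05 and 3.95. Efnb1, of the same class, had 1 shared peak at 3.07 and 2.50. Efna1, Efna2, Efna3, Efna4 and Efnb3 had no exonic peak in either list. They are genes of 1599 to 3183 exonic bases, shorter than the 3452 of Efnb1.

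Slit2, a secreted repellent of commissural axons, had a pair of wide peaks over its 5′ UTR and start codon with enrichments of 4.57 and 5.95. Slit1 had exonic peaks in replicate 2 only. Slit3 had 1 exonic peak in replicate 1 (5.41) and 4 in replicate 2 (up to 3.10), with none overlapping. Of the netrin genes, Ntng2, which encodes a membrane-anchored netrin-G, had 5 shared peaks, and its strongest pair over coding exon 2 measured 2.96 and 3.98. A pair of its other shared peaks also overlapped exons of 6530402F18Rik. Ntn3, a secreted netrin, reached 2.78 and 2.92 in exon 1 of 6, which overlaps the annotated gene BC028777. Ntng1 had 2 shared peaks, the stronger at 1.60 and 3.13. For Ntn1, the netrin best known as a midline attractant, there was no exonic peak in either replicate.

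Eph receptors had a shared peak in 9 of 14 genes (64.3%). Ephb3 had the largest enrichment of any member in a single replicate: its pair over the 5′ UTR and start codon was 3.08 in replicate 1 and 9.18 in replicate 2. A separate pair over exon 3 of Ephb3 followed with 2.26 and 7.87. Both Ephb3 pairs therefore rested on a high value in replicate 2, with an unremarkable one in replicate 1. Ephb4, which binds Efnb2, was even between the replicates, at 5.04 and 4.85 over coding exon 4 of 17. Epha6 measured 4.09 and 4.69 in a pair over its start codon, and Epha3 measured 4.54 and 3.51 over exon 3. The start codon pair of Epha6 also touched an exon of the annotated gene Gm9017. Epha6 was the Eph receptor with the most shared peaks, 10, which placed 69.5% of its mRNA under peaks of both replicates.

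The other Eph receptors were less enriched. Epha5 reached 2.37 and 3.32 over exon 3. The strongest pair of Epha7 measured 2.49 and 3.75, but its replicate 2 peak held 0 exonic bases, and its pair over exon 3 was 2.02 and 1.83. For Ephb2 the strongest pair was 2.06 and 2.20, and for Ephb6, a receptor known to lack kinase activity, it was 1.59 and 2.20. Epha4, a receptor for ephrins of both classes, had the weakest strongest pair of all members, 1.38 and 1.88. Ephb1 had 1 exonic peak in replicate 1 (1.49) and 8 in replicate 2 (up to 3.96), none of them overlapping. Epha1, Epha2, Epha8 and Epha10 had no exonic peak.

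Plexins had a shared peak in 5 of 9 genes. Plxna4, a receptor for class 3 and class 6 semaphorins, had 13 shared peaks, the most of any member, and its strongest pair covered the start codon and exon 2 at 2.50 and 6.23. Plxna2, which binds Sema6a, had 7 shared peaks with a maximum of 3.46 and 4.43, in a pair whose midpoint was intronic. Plxnd1, known from blood vessel and axon patterning, had 5, the strongest at 3.25 and 3.76. These 3 plexins differ in that the Plxna4 enrichment came chiefly from replicate 2, whereas the values of Plxna2 and Plxnd1 differed less between replicates. Plxnc1, a receptor for Sema7a, measured 2.51 and 2.92, and Plxna1 measured 1.98 and 2.18. Plxnb1 and Plxnb2, receptors for class 4 semaphorins, had 9 and 5 exonic peaks in replicate 2 and none in replicate 1. Plxna3 and Plxnb3 had none in either.

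Both neuropilins, the co-receptors of class 3 semaphorins, had shared peaks. In Nrp2 the strongest of 4 pairs, with a stop codon under its replicate 1 peak, measured 2.66 and 3.91. In Nrp1 the strongest of 2 pairs, at the start codon and over Mir1903, measured 2.52 and 1.81. Robo2 reached 2.39 and 4.48 and Robo1 reached 3.74 and 2.75, both over a start codon. In Robo1 this was the start codon of another transcript than the representative one, of whose mRNA 0% lay under peaks of both replicates. These Slit receptors were thus ordered differently by the replicates, and their enrichments cannot be ranked. Robo3 and Robo4 had no exonic peak.

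Among the netrin receptors, Dcc, the receptor for attraction, had the largest value of any shared member peak in replicate 1, 7.49, over its 5′ UTR and start codon. The overlapping replicate 2 peak was 2.96, and the other 4 shared Dcc peaks lay between 2.19 and 3.23 in replicate 1 and between 2.51 and 3.10 in replicate 2. Replicate 1 also held coding Dcc peaks of 5.07 and 3.81 that had no partner in replicate 2. Unc5d, a receptor for repulsion, was even at 4.24 and 4.52 over coding exon 10 of 18, and Unc5c had 1 shared peak at 2.33 and 2.38. Neo1 and Unc5b had peaks in replicate 2 only, and Unc5a had none.

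**Figure D2:**
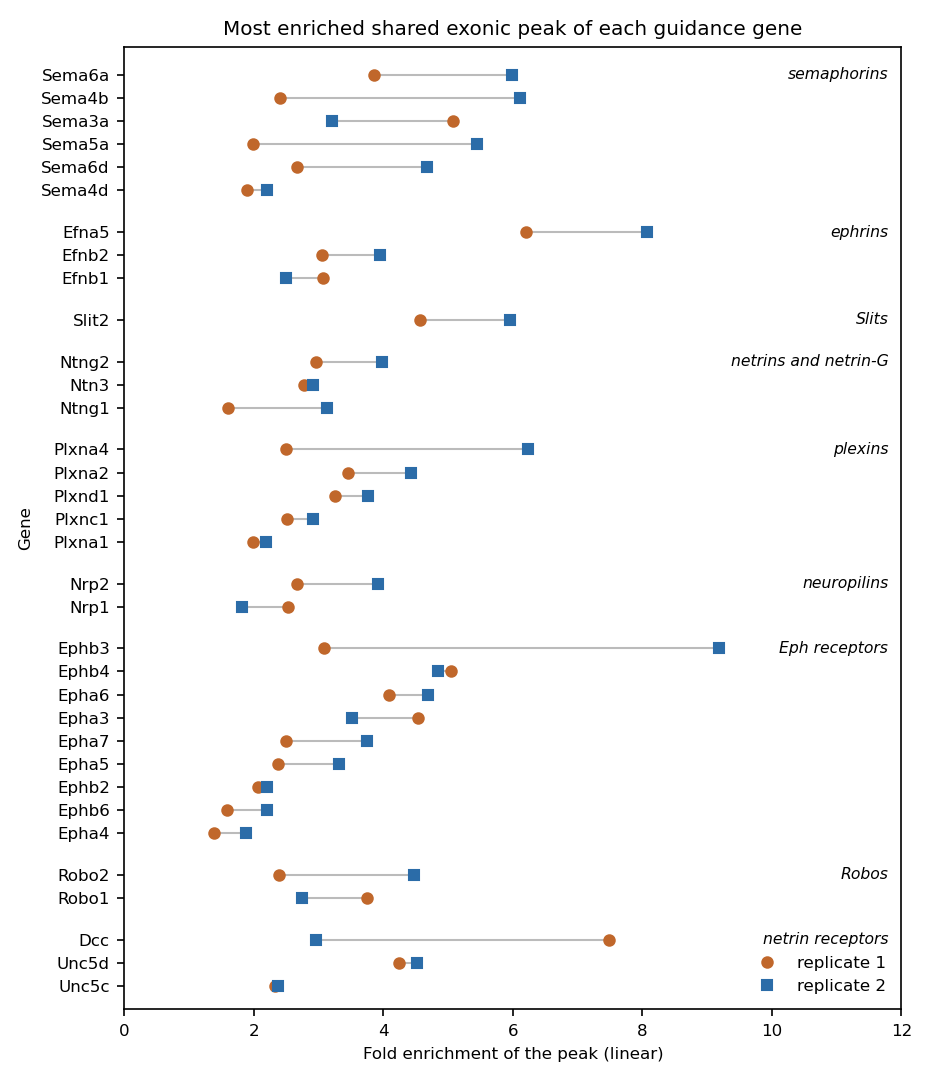
Fold enrichment (linear) of the most enriched shared exonic peak of each of the 34 genes in replicate 1 (circles) and in the overlapping peak of replicate 2 (squares), grouped by family. Efna5 is high in both replicates at 6.21 and 8.07, whereas Ephb3 (3.08 and 9.18) and Dcc (7.49 and 2.96) are high in only 1.

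The spread between replicates limits any ranking of these genes. Of the 34 strongest pairs, 27 were higher in replicate 2 and 5 differed by at least 2 fold. Across all 123 shared member peaks the median enrichment was 2.39 in replicate 1 and 2.82 in replicate 2, and 72.4% were higher in replicate 2. The log2 ratio of replicate 2 to replicate 1 had a median of 0.24 with an SD of 0.52 across peaks. Peaks of all protein-coding genes had nearly the same values, with medians of 2.27 and 2.80, 71.3% higher in replicate 2, and a log2 ratio of 0.26 with an SD of 0.51. The share of members with a peak was thus above that of all protein-coding genes, while the median enrichment of their peaks was close. An enrichment of at least 4 in both replicates was reached by 1 pair each in Efna5, Epha6, Ephb4, Slit2 and Unc5d, that is 5 of 74 members against 1.54% of all protein-coding genes.

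Several members carried many shared peaks. At least 5 shared peaks were found in 9 members, against 2.01% of all protein-coding genes. These were Plxna4 with 13, Epha6 with 10, Sema6a with 9, Plxna2 with 7, Ephb3 with 6, and Dcc, Ntng2, Plxnd1 and Sema6d with 5 each. Only 6 of the 34 had a single shared peak, and the median was 3, against 2 over all protein-coding genes with a shared peak. Exonic length differed too, with a median of 8916 bases in the 34 and 6865 in all protein-coding genes with a shared peak. The part of length in these counts was not tested. Coverage by peaks of both replicates was highest in Efna5 (82.1% of the mRNA), Epha6 (69.5%), Ntng2 (61.9%) and Sema6a (55.2%). A high number of peaks did not always mean a high coverage, which was 15.4% in Dcc and 8.32% in Sema6d.

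**Figure D3:**
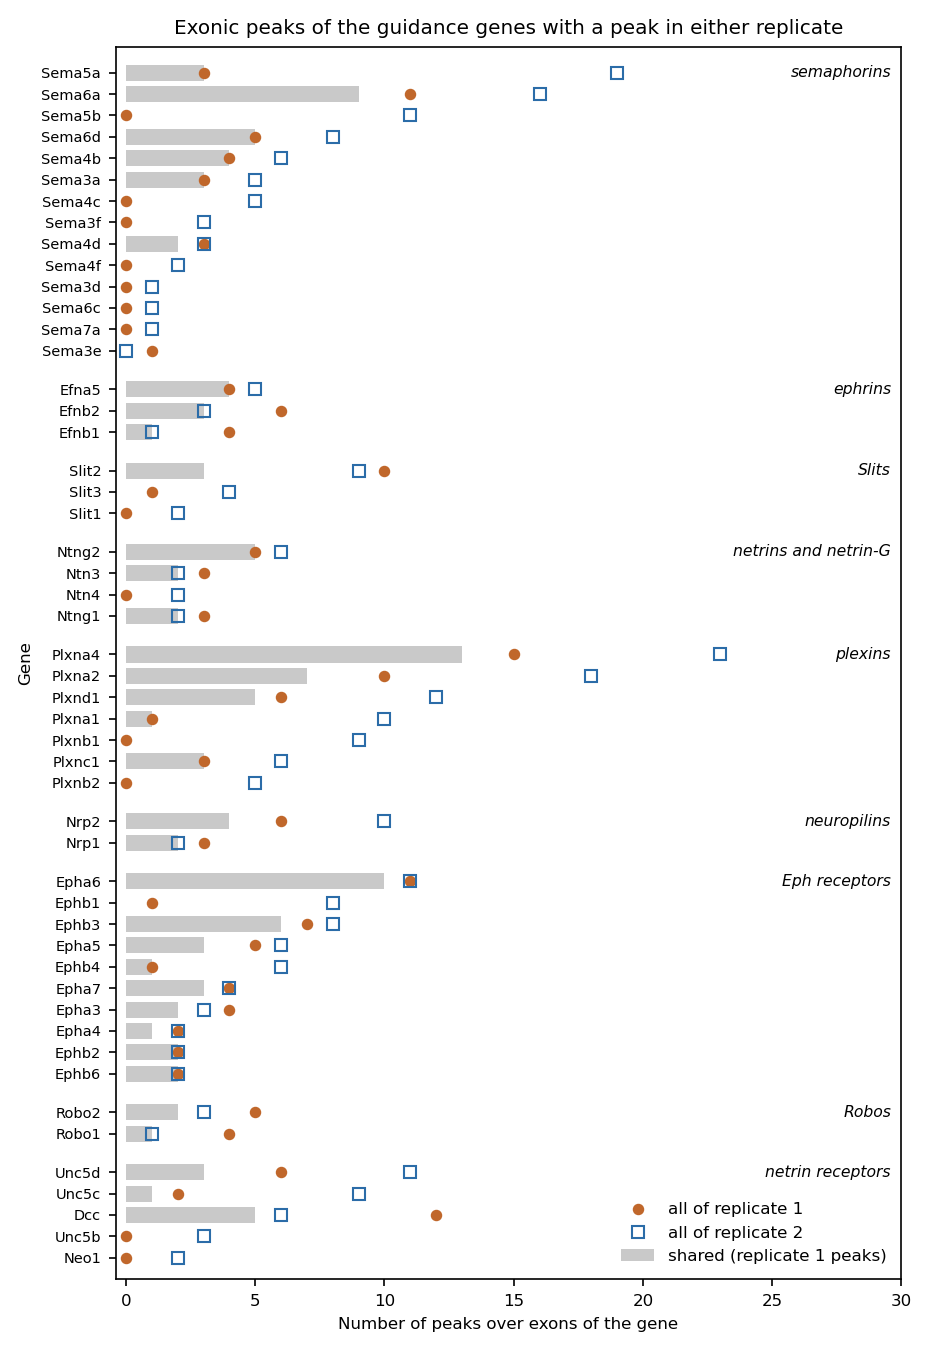
Number of exonic peaks in replicate 1 (circles), in replicate 2 (squares) and shared (grey bars, counted as replicate 1 peaks) for each guidance gene with a peak in either replicate. Plxna4 leads with 13 shared peaks, whereas Sema5b (11), Plxnb1 (9) and Plxnb2 (5) have peaks in replicate 2 and none in replicate 1.

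Peaks of both replicates met repeatedly in the longest coding exon. In all 9 Eph receptors with a shared peak, the bases common to both peaks of a pair touched this exon. It is exon 3 in Epha3, Epha4, Epha5, Epha6, Epha7, Ephb2 and Ephb3, exon 4 in Ephb4 and exon 5 in Ephb6. In Epha3 it spans codons 52 to 272 of 985 and makes up 22.4% of the coding sequence, at the amino terminus where these receptors bind ephrins. The pairs over it were weakest in Epha4 (1.38 and 1.88) and higher in Epha3 (4.54 and 3.51), Epha6 (4.72 and 2.50), Ephb3 (2.26 and 7.87) and Ephb4 (5.04 and 4.85). Ephb1 had a replicate 2 peak there (3.76) and none in replicate 1.

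The same held for the 5 plexins with a shared peak. Their longest coding exon is the one that holds the start codon and encodes the beginning of the semaphorin-binding domain: exon 2 in Plxna1, Plxna2 and Plxna4, where it ends at codon 396, 396 and 395, and exon 1 in Plxnc1 and Plxnd1. The pair over it measured 1.98 and 2.18 in Plxna1, 2.27 and 3.57 in Plxna2, and 2.50 and 6.23 in Plxna4. In these A plexins the value was higher in replicate 2 each time, and the order of the genes was the same in both replicates. Plxnb1, without a peak in replicate 1, had a replicate 2 peak of 3.27 over its longest coding exon. Among all members with a shared peak, 26 of 34 (76.5%) had both peaks of a pair over their longest coding exon, against 58.5% of the protein-coding genes with a shared peak and at least 2 coding exons. The exon made up a median of 22.4% of the coding sequence in these members and 31.9% in those genes. A gene counted when any of its pairs touched the exon, in Ephb2 with 68 of its 685 bases. The members had more shared peaks per gene, with a median of 3 against 2 over all protein-coding genes with a shared peak. The part of peak number in this difference was not tested.

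**Figure D4:**
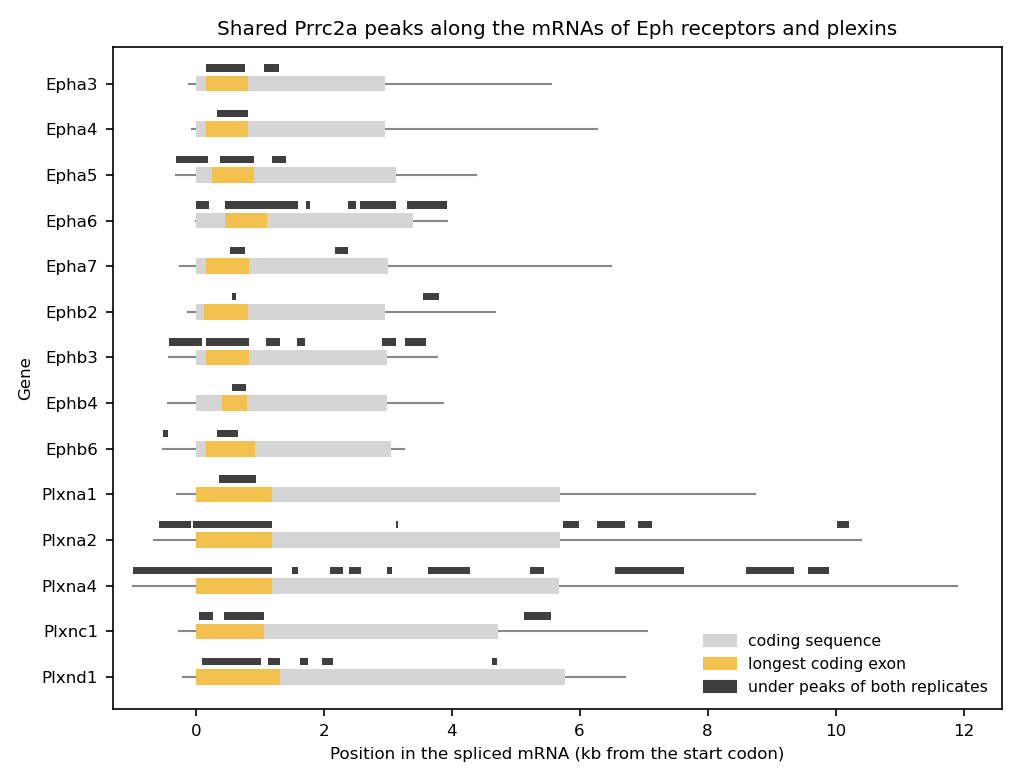
Spliced mRNAs of 9 Eph receptors and 5 plexins in kb from the start codon, with UTRs as lines, the coding sequence in grey, the longest coding exon in yellow and black bars above for bases under peaks of both replicates. In all 14 genes a black bar lies over the yellow exon near the 5′ end, which in Epha3 spans codons 52 to 272.

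Start codons were another frequent position. A start codon lay under a shared peak in 19 members, against 4.20% of all protein-coding genes, and per peak the share was 16.3%, against 13.0%. Codons were looked for under the replicate 1 peak of each pair. In 14 of the 34 genes with a shared peak (41.2%), a start codon lay under that peak of the most enriched pair. The share was 20.2% over all protein-coding genes with a shared peak. Those 14 include Efna5, Ephb3, Slit2, Dcc, Epha6, Plxna4 and Sema3a described above. Shared peaks with the midpoint in the 5′ UTR, 19 in all, had median enrichments of 3.05 and 2.83 in replicates 1 and 2, compared with 2.36 and 2.69 for the 66 in coding sequence and 2.02 and 2.66 for the 24 in 3′ UTR. Only replicate 1 separated the 5′ UTR from the coding sequence by much, and in replicate 2 these medians were close. Over all protein-coding genes they were 2.43 and 2.85 in the 5′ UTR and 2.34 and 2.83 in coding sequence. The 5′ UTR was not the most enriched region. Member pairs with an intronic midpoint (10) had 2.95 and 3.75, and those outside the gene (4) had 3.24 and 3.73.

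By midpoint, 53.7% of the 123 shared member peaks lay in coding sequence, 19.5% in 3′ UTR and 15.4% in 5′ UTR, with 10 in introns and 4 outside the gene. For all protein-coding genes the shares were 50.3%, 30.3% and 11.4%. The members with a shared peak thus had a smaller share of their peaks in the 3′ UTR than protein-coding genes at large. Of the exonic bases of these members, 31.9% were 3′ UTR, 31.9% coding sequence, 6.40% 5′ UTR and 29.8% other exon. Such base shares were not taken for all protein-coding genes, so their part in the difference was not tested. A stop codon lay under the replicate 1 peak of a shared pair in 15 members, against 4.09% of all protein-coding genes. Per peak the share was 12.2%, against 12.5%. In Efnb2, Ntn3 and Sema3a no replicate 2 peak reached the stop codon of the representative transcript, and in Ntng1 the peak lay at the 5′ end of the gene. With replicate 2 peaks counted instead, the count of members was 12. When both peaks of a pair had to overlap by 50% of each, the count of members was 3 (Epha6, Ntng2 and Sema4b). Many peaks over short exons ran into the introns on either side, and with each peak assigned to the region holding most of its bases the coding share was 33.3%.

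GGAC was present on the strand of the gene in the exonic bases of 100 of the 123 shared member peaks (81.3%), against 77.5% of shared peaks over all protein-coding genes. The longer GGACT, which contains GGAC, was present in 46.3% and 42.8%. Among the printed stretches it occurs in those of Epha3, Ephb6 and Plxna2. Some strong pairs held no GGAC, among them those of Ephb4 (5.04 and 4.85), Unc5d (4.24 and 4.52) and Sema4b over exon 11 (2.41 and 6.11). Most shared peaks of all genes held a GGAC, so its presence in a member peak is a description and not a site.

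Genes with peaks in replicate 2 only were 13 of the 74 members (17.6%), against 7.50% of all protein-coding genes. They were the semaphorins Sema3d, Sema3f, Sema4c, Sema4f, Sema5b, Sema6c and Sema7a, and Plxnb1, Plxnb2, Slit1, Ntn4, Neo1 and Unc5b. Their 47 peaks had a median enrichment of 2.45, and the highest, 5.65, was in Sema5b. Sema5b carried 11 of these peaks and Plxnb1 carried 9. The Sema7a peak (1.60, 58 exonic bases) overlapped a replicate 1 peak that touched no Sema7a exon, so that Sema7a became a further member with a shared peak when replicate 2 peaks were counted, 35 in all. In replicate 1 alone there was a single member, Sema3e, with 1 peak of 1.72 (2.87% of all protein-coding genes). Exonic peaks were found in neither replicate for 24 members (32.4%, against 76.0% of all protein-coding genes). Apart from those named above, these were Sema3b, Sema3c, Sema3g, Sema4a, Sema4g, Sema6b and Ntn5.

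The exons of members with and without a shared peak differed in base composition. The 34 with a shared peak had a median GC content of 46.8%, the 13 with peaks in replicate 2 only 57.7%, and the 24 with none 56.5%. Over all protein-coding genes the medians of these classes were 49.3%, 50.7% and 48.0%. The classes also differed in exonic length: the median was 8916 bases in the first class, 5935 in the replicate 2 class and 4607 in the last. Member peaks without a partner had a median GC of 48.4% in replicate 1 (55 peaks) and 55.1% in replicate 2 (176 peaks). The medians over all protein-coding genes were 51.7% and 53.7%. Member peaks that overlapped the other replicate had 54.8% in replicate 1 and 54.5% in replicate 2, against 53.4% in both over all protein-coding genes. The lower exon GC of members with a shared peak was thus not seen in the peaks that overlapped. The part of GC content and length in which members had a shared peak was not tested.

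**Figure D5:**
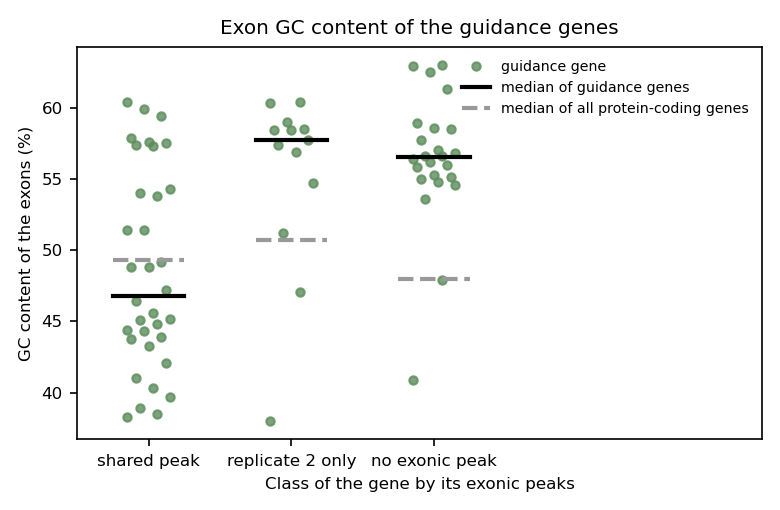
GC content of the exons (%) of each member (points) by class, with the median of the members (black line) and of all protein-coding genes in that class (dashed line). Members with a shared peak centre on 46.8%, below those with peaks in replicate 2 only (57.7%) or with none (56.5%).

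Other genes of axon guidance, taken from a list of 63, gave a similar share. Of these, 27 (42.9%) had a shared peak, compared with the 12.0% of all protein-coding genes given above. That comparison was not matched for length: the median was 7494 exonic bases in the list and 3498 over all protein-coding genes. The part of length in it was not tested. Co-receptors and other cues had one in 9 of 16 genes and intracellular effectors in 18 of 47. The most enriched were Flrt1, which encodes a membrane protein that binds Unc5 receptors and latrophilins, at 5.35 and 9.99, and Dscam, an adhesion molecule reported as a netrin receptor, at 6.87 and 6.44 with 13 shared peaks. Next came Met, the receptor for hepatocyte growth factor, at 4.09 and 5.62. Cdon, a Hedgehog co-receptor, measured 6.03 and 2.36, and Rgmb, a ligand of Neo1, measured 5.22 and 3.17. These 5 encode cell-surface proteins. The effector with the highest mean was Sipa1l1 (2.04 and 4.82), and some cell-surface genes of the list were lower, such as Flrt3 (2.38 and 2.98) and Dscaml1 (1.84 and 2.45). Exonic peaks were found in neither replicate for 18 of the 63, against 76.0% of all protein-coding genes. Among these were Rhoa (7494 exonic bases), Rac1, Cdc42 and Cfl1, and longer genes such as Mical2 (15218) and Cntn1 (9433).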

How the data were processed

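Prrc2a RIP-seq of mouse brain was analysed from the peak lists of 2 replicates of 1 condition. The authors deposited each peak with its start, end and fold enrichment, a linear ratio over a control that the sources used here do not name. The submitters' processing notes name TopHat2 2.0.9 and MACS2 2.0.10 with mm10 (GRCm38), and the methods give other versions. Replicates were called separately. The lists hold no strand, p-value or read count, so that depth and counting error are unknown, and a peak over exons of overlapping genes counted for each of them.

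Peaks were matched to GENCODE M21 exons of any transcript, with coordinates counted from 1. The region of a peak is the annotation at its midpoint. Start and stop codons are those of any protein-coding transcript under the replicate 1 peak of a pair. Exon numbers, codons and the longest coding exon refer to 1 representative transcript per gene. When a gene had several shared peaks, the strongest was the pair with the highest mean of both replicates. The named genes were the 24 with the highest such mean, those with at least 5 shared peaks, all members without a shared peak, and the 5 most enriched of the pathway list. Other members and the longest coding exons were added after their values were seen. The members, the pathway list and the summaries were chosen with earlier results of these data known. No test was run, since there was 1 group. On simulated peaks and sequences with planted values, 7 of 7 quantities were recovered. For the region at the midpoint, the planted answer came from the same rule as the call, so that item is no check of the rule. Alternatives were a reciprocal overlap of 50%, an enrichment of at least 4, each replicate alone, replicate 2 peaks counted, 1 gene per peak, the basic annotation, gene spans, other region and motif rules, and, chosen after seeing the data, at least 100 exonic bases under both peaks. Python 3.11.15, numpy 2.4.6, pysam 0.24.0 and matplotlib 3.10.9 were used.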

Additional observations from a re-analysis of the deposited data

How the results depend on the processing

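The count of 34 members with a shared peak was 30 when the peaks had to overlap by 50% of each, without Efnb1, Ntng1, Sema4d and Unc5c. That setting left 3 members with a stop codon under a shared peak. An enrichment of at least 4 in both replicates changed most: 5 members with 5 peaks were left, of which 40.0% were in coding sequence and 60.0% held GGAC, with a median enrichment of 4.95, a stop codon in 0 members and 3 pathway genes with a shared peak. Without replicate 1 or without replicate 2, all exonic peaks of the remaining list were counted, which gave 178 to 299 peaks, 33 to 43 pathway genes, a median enrichment of 2.39 to 2.68, and GGAC in 70.6% to 71.9% of peaks. The region with the most bases gave 33.3% coding. GGACT was found in 46.3% of shared member peaks, and GGAC within 50 bp of the midpoint in 41.5% (34.5% over all protein-coding genes). The causes of these changes were not tested beyond what each setting itself removes. Across all settings, 40 values stayed within the limits set for no change and 16 moved. These limits were wide for counts, with a ratio of 1.5. The 49 members found without replicate 1 and the 178 peaks found without replicate 2 therefore still counted as no change. No paired analysis was possible because there is 1 group. The limits are that 2 replicates of unknown depth, a control that is not named and lists without strand leave the enrichments without a counting error, and that a gene without a peak may have had too few reads.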

Other observations

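Peaks within the introns of the members, outside any of their exons, were uneven between the replicates. Replicate 1 held 44 such peaks in 8 members and replicate 2 held 8 in 6 members, and 2 of the replicate 1 peaks were shared. Over all protein-coding genes the lists leaned the same way, with 4932 intronic gene and peak pairs in replicate 1 and 2502 in replicate 2. An intronic peak was found in 10.8% of the members and 3.84% of all protein-coding genes in replicate 1, and in 8.11% and 3.60% in replicate 2. Slit3, the Slit without a shared exonic peak despite peaks in both replicates, had 22 intronic peaks in replicate 1, with enrichments from 2.45 to 5.52 and a median of 4.16, and 0 in replicate 2. Plxna4 had 14 in replicate 1, from 3.77 to 5.13 with a median of 4.57, and 0 in replicate 2, although its 13 shared exonic peaks made it the member with the most. Ephb1 followed with 3 in replicate 1 and 1 in replicate 2.

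Introns did not give the lowest ratios. The median enrichment of the intronic member peaks was 4.35 in replicate 1 and 3.75 in replicate 2, compared with 2.39 and 2.68 for the exonic ones. In replicate 1, 35 of the 44 intronic peaks had an enrichment value that at least 10 peaks of that list share exactly, compared with 9 of the 178 exonic peaks. In replicate 2 the counts were 4 of 8 and 37 of 299. Among the 34 strongest exonic pairs, only those of Epha7 and Sema3a included such a repeated value. The cause of the repeated values was not tested.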
